A study of Mus musculus with 10 samples.

Results

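The genes described here encode the proteins of the mitochondrial ribosome, the machine that translates the messages of the mitochondrial genome. They were taken by name, as every gene on the array whose symbol starts with Mrpl (large subunit) or Mrps (small subunit), and 77 of the 19938 genes tested qualified. Each was represented by its brightest probe set among those that carry exactly 1 symbol, so a probe set shared by Mrpl53 and Ccdc142 was left out by this rule. Total RNA of mouse neurons, labelled as terminally differentiated and of strain 129Sv-C57Bl/6, had been hybridised to whole-transcript arrays made by Affymetrix. SP600125 blocks the stress-activated kinases of the JNK group. It was given at 25 µM, 3 times at 2 hour intervals, and control cells received DMSO, its solvent. Each group had 5 arrays, named a to e, of which a and b belong to lot (batch) 1 of the drug and c, d and e to lot 2. The labels give no genotype other than the strain, no age and no way to tell separate cultures from repeat platings. The p-values therefore set the difference between groups against the scatter of these samples only, and part of that scatter may be technical.

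The mitochondrial ribosome descends from that of bacteria and holds proteins with bacterial counterparts beside many that exist only in mitochondria. All of its proteins are encoded in the nucleus, made in the cytosol and imported, while its ribosomal RNAs come from mitochondrial DNA. Its products are core subunits of the respiratory chain and of ATP synthase, on which neurons depend heavily for energy. The assignment of genes to subunits and to bacterial or mitochondrial origin below is background knowledge and was not measured here.

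Most mitochondrial ribosomal protein genes had lower signal after SP600125, by small amounts. With drug batch as a term in limma, 40 of the 77 fell at an adjusted p under 0.05, 1 rose and 36 did not pass. Over all genes tested, 29.9% fell and 17.0% rose. The change is given throughout as SP600125 minus DMSO on the log2 scale, with the moderated standard error (SE) of limma. It was below 0 for 72 of the 77 members and for 10750 of the 19938 genes tested. The median was −0.18 for members, against −0.03 over all genes. The largest fall was that of Mrpl42, to 69.3% of its DMSO signal, and 14 members fell at least 1.25-fold. Such falls were common on these arrays. When all 19938 genes were ranked from the largest fall, Mrpl42 came at 472 and Mrpl40, the smallest of these 14 falls, at 2463.

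The count has to be read against signal level, since genes of different brightness moved differently on these arrays. Where the mean log2 signal over all arrays was from 7 to 8, there were 3363 genes, of which 60.6% fell, with a median change of −0.22. The 33 members of that level had nearly the same values, with 60.6% lower and a median of −0.21. Changes were below 0 for 32 of these 33 members and for 2989 of the 3363 genes. Between 6 and 7, 40.7% of 27 members fell, against 41.1% of 3833 genes. Between 8 and 9, 33.3% of only 9 members fell, against 66.3% of 1719 genes. Most of the few dim members went against the direction of their level, a difference that was not tested. Between 5 and 6, 5 of 7 members fell (71.4%), whereas 13.8% of 3898 genes fell and 27.6% rose.

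Scaling the arrays by cyclic loess, which removes such a dependence on level between arrays, left 16 members lower and 2 higher, with a median of −0.06. The shares over all genes were then 17.7% and 9.44%, so the share of members that fell (20.8%) stood near that of all genes. By level the shares still differed. Between 7 and 8, 6.06% of members and 20.5% of all genes were lower, and between 8 and 9, 11.1% and 24.7%. Between 6 and 7 the shares were 25.9% and 25.2%, and between 5 and 6, with 7 members, 71.4% and 19.9%. Quantile normalization gave 22 members lower (22.5% of all genes) and centring each array on its median gave 62 (43.1% of all genes, with the median change of all genes at −0.13). All 16 members lower after cyclic loess were also lower in the other 3 scalings: Mrpl42, Mrps27, Mrps6, Mrpl16, Mrpl22, Mrpl19, Mrpl50, Mrpl57, Mrps35, Mrpl20, Mrpl32, Mrps25, Mrpl15, Mrpl47, Mrpl14 and Mrpl43. For 14 of them, all but Mrpl47 and Mrpl14, the call also held without each array in turn. Shares over all genes were not taken for these combined conditions, so the counts describe only the genes listed.

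**Figure D1:**
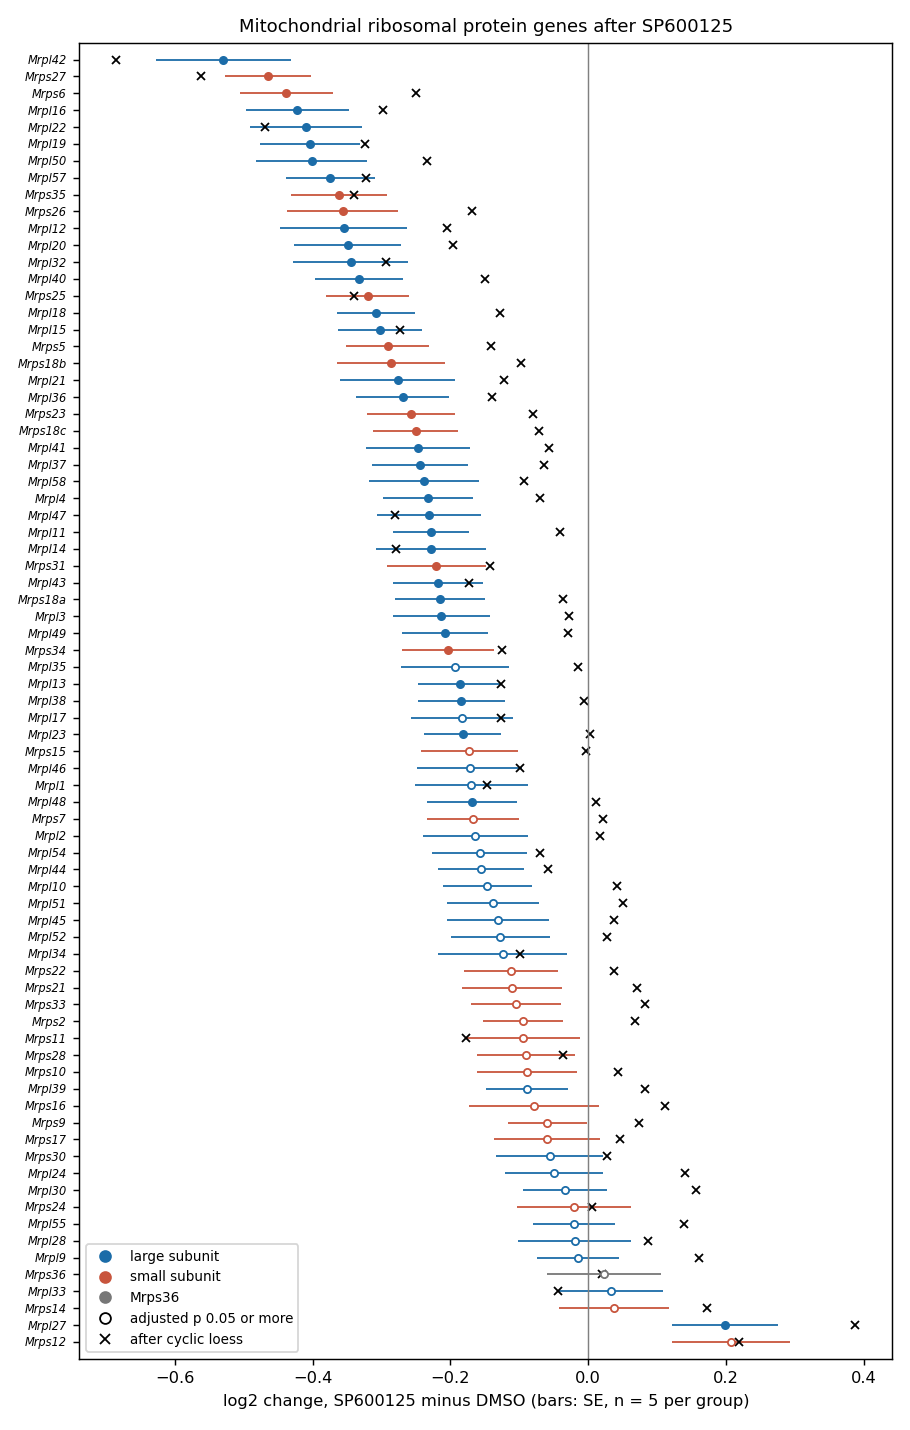
Log2 change of each of the 77 mitochondrial ribosomal protein genes, SP600125 minus DMSO, with its SE (5 arrays per group); filled points have an adjusted p under 0.05 in limma, open points do not, and crosses give the change after cyclic loess. Of the 77 points 72 lie left of 0, and of all 19938 genes 10750 had changes below 0. The crosses lie further right for most members, except among dim ones such as Mrpl42 and Mrps27.

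**Figure D2:**
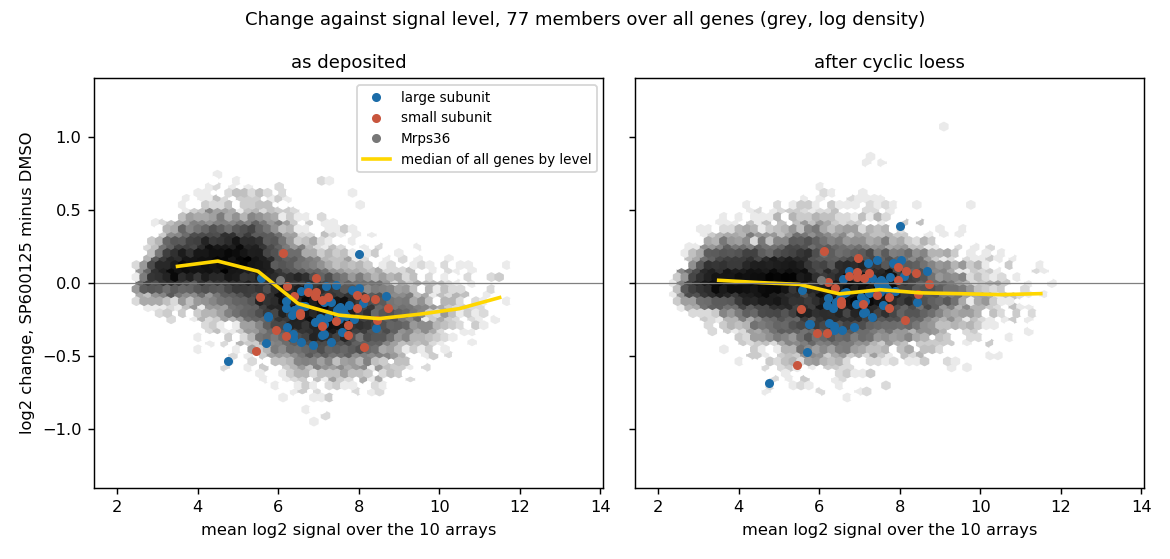
Log2 change, SP600125 minus DMSO, against the mean log2 signal over all arrays, for the values as deposited (left) and after cyclic loess (right); grey cells are the density of all 19938 genes, coloured points the 77 members and the line the median of all genes in each unit of signal. Members between 7 and 8 scatter around the line, with medians of −0.21 for members and −0.22 for all genes, while the dimmest members lie below it.

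The members' median signal on an array was 7.15, 7.12, 7.21, 7.23 and 7.29 on DMSO arrays a to e and 6.95, 7.001, 7.03, 7.03 and 6.999 on the SP600125 arrays. The groups did not overlap in this measure. After cyclic loess they did, at 7.09 to 7.19 for DMSO and 7.03 to 7.13 for SP600125. Medians over all genes were 5.93 to 6.02 and 5.92 to 5.97, and the SD over all genes was narrower on every SP600125 array (1.63 to 1.71) than on any DMSO array (1.76 to 1.84). Without both b arrays, 47 members fell and the median was −0.23, while 31.6% of all genes fell.

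Cell type markers moved beside these changes, and their part in them was not tested. Of 7 neuron markers, all well above the dimmest signals, 6 fell, and the list mean ran from 8.83 to 9.22 on DMSO and from 8.50 to 9.09 on SP600125 arrays. Fibroblast markers were bright too (list mean 9.51 to 9.65 on DMSO, 9.18 to 9.31 on SP600125, 2 of 5 lower). Astrocyte (2 of 5), oligodendrocyte (3 of 5) and neural progenitor markers (1 of 4) also held fallen genes, with list means of 7.68 to 7.75, 7.59 to 7.67 and 7.79 to 7.84 on DMSO arrays and 7.58 to 7.69, 7.40 to 7.51 and 7.46 to 7.56 on SP600125 arrays. In the astrocyte and progenitor lists, 2 of 5 and 2 of 4 markers had changes below 0, with medians of 0.01 and 0.01, and the progenitor list held 1 fall of 1.34. Microglia markers (3 of 5 higher) and pluripotency markers (1 of 3 higher) were dim, with list means up to 4.79 on any array. Over all genes 29.9% fell and 17.0% rose. Among all genes with a signal between 8 and 9, 66.3% fell, and between 7 and 8, 60.6%. Between 4 and 5, 3.22% fell and 36.2% rose. The marker counts were not separated from this dependence on signal level. In such bulk samples, fewer cells of a type cannot be told apart from less RNA per cell.

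To place the members that lead the results, the bases just upstream of their start sites were read from RefSeq (GRCm38.p6), which held a promoter window of 300 bases for 68 of the 77 genes. The windows run from 250 bases before to 50 after the start. They were searched on both strands for GCGCANGC (the core of the NRF1 motif), CCGGAAG (the ETS motif bound by GABPA) and AAGATGG (the core of the YY1 motif). NRF1 and GABPA are known as regulators of nuclear genes for mitochondrial proteins. The 120 bases before the start of Mrpl42 (chr10:95501950-95502069, minus strand), the largest fall, of Mrps27 (chr13:99344666-99344785, plus strand) and Mrpl22 (chr11:58171544-58171663, plus strand), both among the largest falls, of Mrpl57 (chr14:57826119-57826238, plus strand), which varied little between DMSO arrays, and of Mrpl27 (chr11:94653671-94653790, plus strand), the only member that rose, are shown 5′ to 3′ with the matches in capitals.
Mrpl42: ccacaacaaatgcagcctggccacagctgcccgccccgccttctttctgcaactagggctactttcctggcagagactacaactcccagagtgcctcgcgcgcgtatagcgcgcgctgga
Mrps27: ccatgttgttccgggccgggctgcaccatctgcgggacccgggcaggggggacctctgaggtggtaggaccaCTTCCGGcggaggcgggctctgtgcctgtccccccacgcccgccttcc
Mrpl22: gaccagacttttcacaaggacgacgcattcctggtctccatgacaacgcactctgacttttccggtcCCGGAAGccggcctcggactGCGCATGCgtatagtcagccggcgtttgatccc
Mrpl57: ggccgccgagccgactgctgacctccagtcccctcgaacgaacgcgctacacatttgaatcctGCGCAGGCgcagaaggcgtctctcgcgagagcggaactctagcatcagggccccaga
Mrpl27: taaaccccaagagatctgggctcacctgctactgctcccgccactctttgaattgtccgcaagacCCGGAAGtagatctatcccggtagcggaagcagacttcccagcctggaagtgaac

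The capitals are an ETS match on the reverse strand in Mrps27, an ETS and an NRF1 match in Mrpl22, an NRF1 match in Mrpl57 and an ETS match in Mrpl27. Mrpl42 is shown as a gene with no match in these 120 bases, and Mrps6, Mrpl16 and Mrpl50, also among the largest falls, have none there either. Past the start site, in the part of the window not printed, Mrpl42 has a YY1 match at position 27. Mrps27 has a YY1 match at 14 and Mrpl57 an ETS match at 4, and the shares below count these. Such matches were common among the members. An NRF1 match was found for 32.4% of the 68 genes (16.0% of 15614 genes tested that have a window), an ETS match for 36.8% (13.6%) and a YY1 match for 19.1% (7.28%). In no window of a member did matches of different motifs overlap. At least 1 of the 3 motifs was present for 66.7% of the 33 members that fell and have a window and for 65.7% of the other 35. A match describes letters and is not evidence of binding.

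Of the 50 proteins of the large subunit, which joins amino acids into the chain, 29 fell, 1 rose and 20 did not pass, with a median of −0.20. In the small subunit, which reads the message, 11 of 26 fell, none rose and 15 did not pass, with a median of −0.14. After cyclic loess 12 (24.0%) and 4 (15.4%) remained lower. Over all genes the shares lower were 29.9% as deposited and 17.7% after cyclic loess. Of the 15 small subunit proteins with a bacterial counterpart 2 fell (Mrps6 and Mrps5), while 7 of the 9 found only in mitochondria fell. After cyclic loess these counts were 1 of 15 and 3 of 9. In the large subunit the same classes had 17 of 29 and 11 of 20 lower. These are counts over members, and no difference between the classes was tested.

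Mrpl42, a mitochondria-specific large subunit protein, had the largest fall and also the widest DMSO spread of any member. Its log2 signal was 4.70, 4.55, 5.19, 5.16 and 5.52 on DMSO arrays a to e and 4.45, 4.20, 4.73, 4.45 and 4.64 on the SP600125 arrays. Every SP600125 array was below the DMSO arrays of its batch, but the whole groups overlapped, since DMSO arrays a and b were low. The change was −0.53 (SE 0.10, limma adjusted p = 0.00104), at −0.30 in batch 1 and −0.68 in batch 2. It is also the dimmest member, with a mean of 4.76, and its change after cyclic loess was larger (−0.69, adjusted p = 0.000761).

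Mrpl22, which lines the tunnel through which the new chain leaves the ribosome, followed a similar course. It stood at 5.53, 5.59, 6.11, 5.99 and 6.29 on DMSO and at 5.07, 5.42, 5.74, 5.65 and 5.58 on SP600125 arrays, with batch 1 below batch 2 in both groups. It fell by 0.41 (SE 0.08, limma adjusted p = 0.00146), and by 0.47 after cyclic loess. The other proteins at the tunnel and its exit moved less. Mrpl47 fell by 0.23 (SE 0.08) and Mrpl23 by 0.18 (SE 0.06). Mrpl17 (change −0.18, SE 0.07), Mrpl45, which faces the inner membrane (−0.13, SE 0.07), and Mrpl24 (−0.05, SE 0.07) did not pass. Mrpl17 did pass after median centring (−0.28), with dim genes left out (−0.18, adjusted p = 0.0457) and without SP600125 c (−0.22) or e (−0.22), and Mrpl45 after median centring (−0.23). After cyclic loess Mrpl22 and Mrpl47 were the only ones of these 6 past the threshold.

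Mrpl16, a core protein beside the site where transfer RNAs bind, stood at 6.91, 6.91, 7.19, 7.21 and 7.17 on DMSO and at 6.53, 6.56, 6.75, 6.51 and 6.95 on SP600125 arrays. SP600125 e (6.95) was above DMSO a and b (both 6.91), but below every DMSO array of its own batch. The fall was 0.42 (SE 0.08, limma adjusted p = 0.000827), and 0.40 (SE 0.07, adjusted p = 0.000846) for Mrpl19, a protein with a bacterial counterpart. Mrpl19 read 6.70, 6.70, 6.93, 6.67 and 6.79 on DMSO and 6.11, 6.41, 6.47, 6.44 and 6.34 on SP600125 arrays, with no overlap.

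Mrpl57 and Mrpl50 are mitochondria-specific. Mrpl57 varied little between DMSO arrays, at 6.53, 6.56, 6.52, 6.56 and 6.64 on DMSO and 6.06, 6.13, 6.32, 6.32 and 6.09 on SP600125 arrays. Its groups, 6.56 ± 0.05 and 6.19 ± 0.13 (mean ± SD, n = 5), lay well apart, with a change of −0.37 (SE 0.07, limma adjusted p = 0.000701). Mrpl50 stood at 7.54, 7.36, 7.68, 7.37 and 7.56 and at 6.95, 7.001, 7.34, 7.21 and 6.999 in the same order, which do not overlap, although DMSO b (7.36) and SP600125 c (7.34) nearly met. It fell by 0.40 (SE 0.08, adjusted p = 0.0016).

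The stalk of the large subunit recruits the translation factors. Its mobile part is Mrpl12, which is also known to bind the mitochondrial RNA polymerase, and it read 7.23, 7.09, 7.24, 7.17 and 7.60 on DMSO and 6.99, 6.94, 7.01, 6.71 and 6.89 on SP600125 arrays. The groups did not overlap, and DMSO e was the highest value by a wide gap. Mrpl12 fell by 0.36 (SE 0.09, limma adjusted p = 0.00698), but not past the threshold after cyclic loess (−0.21, adjusted p = 0.0985). At the stalk base Mrpl11 fell by 0.23 (SE 0.06) and Mrpl10 did not pass (−0.15, SE 0.07). It did pass after median centring (−0.25, adjusted p = 0.0068), without both b arrays (−0.18, adjusted p = 0.0479) and without SP600125 b alone (−0.17, adjusted p = 0.0482).

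The members below were picked for description after their values were seen, because they fell in all 4 scalings. Mrpl20 (change −0.35, SE 0.08), Mrpl32 (−0.34, SE 0.08), Mrpl15 (−0.30, SE 0.06) and Mrpl14 (−0.23, SE 0.08) have bacterial counterparts, and Mrpl43 (−0.22, SE 0.07) does not. Mrpl15 had the narrowest DMSO spread of all members, with 6.35, 6.36, 6.38, 6.39 and 6.43 on DMSO arrays and 6.14, 5.91, 6.09, 6.20 and 6.05 on SP600125 arrays. The call of Mrpl14 was lost without DMSO a, b or d or SP600125 a or c (adjusted p up to 0.0814) and without the batch term (0.108), and that of Mrpl47 without DMSO a or c or SP600125 d (adjusted p up to 0.0625).

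In the small subunit, Mrps27, a mitochondria-specific RNA-binding protein, gave the clearest difference. It stood at 5.65, 5.58, 5.80, 5.72 and 5.64 on DMSO and at 5.08, 5.10, 5.39, 5.31 and 5.18 on SP600125 arrays, so the highest SP600125 value (5.39) was below the lowest DMSO value (5.58). The means were 5.68 ± 0.08 and 5.21 ± 0.14 (± SD, n = 5), and the fall of 0.47 (SE 0.06) had the smallest adjusted p of all members (0.000194). After cyclic loess it was 0.56 (adjusted p = 0.000146). Mrps35, also mitochondria-specific, was at 6.33, 6.33, 6.47, 6.39 and 6.31 on DMSO and 5.87, 5.93, 6.01, 5.95 and 6.27 on SP600125 arrays. SP600125 e (6.27) came near the lowest DMSO array (6.31), and the fall was 0.36 (SE 0.07, adjusted p = 0.00129).

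Mrps6, which has a bacterial counterpart on the platform of the subunit, is also among the largest falls. It read 8.28, 8.12, 8.42, 8.58 and 8.38 on DMSO and 7.61, 7.81, 7.9996, 8.05 and 8.13 on SP600125 arrays, where SP600125 e (8.13) just exceeded DMSO b (8.12). It fell by 0.44 (SE 0.07, limma adjusted p = 0.000367), and by 0.25 after cyclic loess. Mrps26 was at 7.92, 7.68, 7.95, 7.97 and 8.03 and 7.39, 7.69, 7.73, 7.51 and 7.45 in the same order, and the b arrays hardly differed. Its fall of 0.36 (SE 0.08) did not pass after cyclic loess (−0.17, adjusted p = 0.0734). Mrps25 fell by 0.32 (SE 0.06), with no overlap, and by 0.34 after cyclic loess. It was described after its values were seen.

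**Figure D3:**
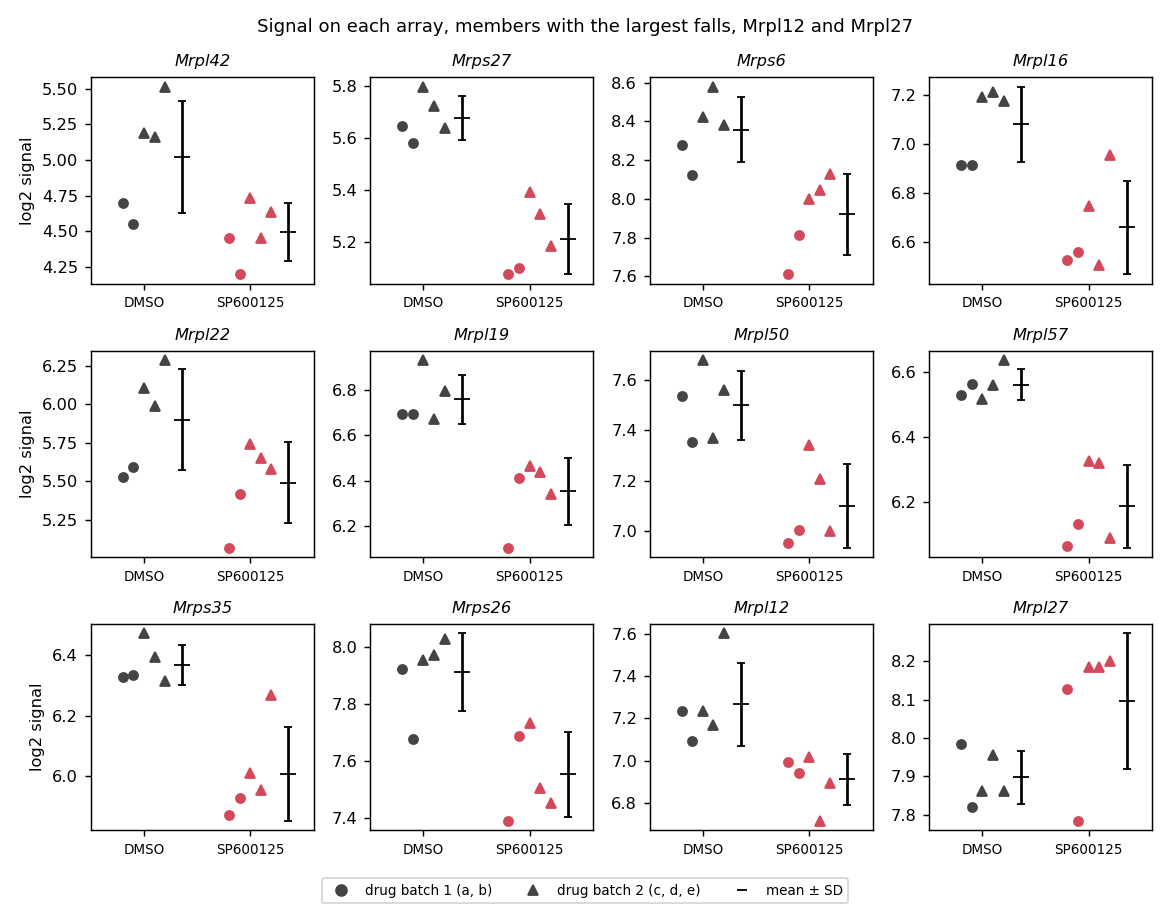
Log2 signal on each array for the 10 members with the largest falls, Mrpl12 and Mrpl27; circles are batch 1, triangles batch 2, and the bar beside each group is its mean ± SD (5 arrays), with a separate vertical axis per gene. Mrps27, Mrpl19, Mrpl50, Mrpl57, Mrps35 and Mrpl12 separate fully, Mrpl42, Mrps6, Mrpl16 and Mrpl22 separate within each batch but not across them, and in Mrpl27 SP600125 b is the lowest array.

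Mammals carry 3 paralogs of bacterial protein S18, each built into a different place, and all 3 fell as deposited. Mrps18b read 7.72, 7.70, 7.98, 8.06 and 7.94 on DMSO and 7.63, 7.31, 7.80, 7.47 and 7.75 on SP600125 arrays and fell by 0.29 (SE 0.08, limma adjusted p = 0.00949). Mrps18c read 8.67, 8.42, 8.57, 8.55 and 8.63 and 8.26, 8.26, 8.40, 8.29 and 8.38, with no overlap, and fell by 0.25 (SE 0.06, adjusted p = 0.00546). Mrps18a, the paralog found in the large subunit, read 7.50, 7.39, 7.64, 7.74 and 7.66 and 7.28, 7.42, 7.30, 7.40 and 7.47 and fell by 0.22 (SE 0.07, adjusted p = 0.0158). The falls were of similar size, and none of the 3 passed after quantile normalization (−0.16, −0.10 and −0.09, in the order given here) or cyclic loess (−0.10, −0.07 and −0.04).

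Mrpl27, which reaches towards the site of peptide bond formation, was the only member that rose. It stood at 7.98, 7.82, 7.86, 7.96 and 7.86 on DMSO and at 8.13, 7.78, 8.18, 8.18 and 8.20 on SP600125 arrays. SP600125 arrays a, c, d and e were above every DMSO array, and SP600125 b was the lowest of the 10. The rise of 0.20 (SE 0.08, limma adjusted p = 0.046) was larger after cyclic loess (0.39, adjusted p = 0.00607) and without SP600125 b (0.27). It was lost after centring each array on its median (0.10) and without DMSO b, c, d or e or SP600125 a, c, d or e (0.17 to 0.20, adjusted p up to 0.119), without the batch term (adjusted p = 0.0578) and with its probe sets averaged (0.12). Its dimmer second probe set showed 0.04 (SE 0.12). Mrps12, part of the decoding site and the member with the most positive change, did not pass (0.21, SE 0.09, adjusted p = 0.0606). It did pass without DMSO e (0.27, adjusted p = 0.0234), without SP600125 d (0.28, adjusted p = 0.0122) and with the replicate letter as a block (adjusted p = 0.0427).

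The smallest changes were those of Mrpl9 (−0.02, SE 0.06), Mrpl28 (−0.02, SE 0.08), Mrpl55 (−0.02, SE 0.06), Mrps24 (−0.02, SE 0.08) and Mrps36 (0.02, SE 0.08). Mrpl9 read 7.39, 7.31, 7.51, 7.55 and 7.45 on DMSO and 7.45, 7.42, 7.48, 7.37 and 7.41 on SP600125 arrays, with the groups intermixed. After cyclic loess it was called higher (0.16, adjusted p = 0.0435). Mrps36 carries a ribosomal name but is known as a component of the 2-oxoglutarate dehydrogenase complex of the citric acid cycle. It read 6.18, 6.00, 5.98, 5.79 and 6.17 on DMSO and 5.92, 5.94, 6.09, 6.17 and 6.12 on SP600125 arrays. Signs this close to 0 turned with the scaling: Mrpl9, Mrpl28 and Mrpl55 were above 0 after quantile normalization and cyclic loess, and Mrps24 after cyclic loess.

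The remaining 17 members that fell had changes from −0.33 to −0.17. They were Mrpl40, Mrpl18, Mrps5, Mrpl21, Mrpl36, Mrps23, Mrpl41, Mrpl37, Mrpl58, Mrpl4, Mrps31, Mrpl3, Mrpl49, Mrps34, Mrpl13, Mrpl38 and Mrpl48, and none was lower after cyclic loess. Among them Mrpl58 is a release factor that became part of the ribosome. A further 26 members did not pass, with changes from −0.19 to 0.04, a range that overlaps the smallest falls that passed. The SE ran from 0.06 to 0.10 over all members. For 8 members the array has more than 1 probe set. Those of Mrpl23 gave the same fall (−0.18 and −0.19), while the second sets of Mrpl41 (−0.11 against −0.25), Mrpl47 (−0.15 against −0.23) and Mrps5 (−0.14 against −0.29) showed smaller changes and that of Mrpl51 a larger one (−0.30 against −0.14).

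The lots of drug allow the question whether the response differed between batches. The DMSO arrays carry the same batch numbers, so the lot cannot be told apart from anything else that differed between batches. The members' median change was −0.16 in batch 1 and −0.21 in batch 2, with 68 and 70 of 77 below 0. Over all genes the medians were −0.006 and −0.049, and their signs were not counted by batch. At a mean log2 signal between 7 and 8, the medians were −0.18 and −0.21 for members. For all genes of that level they were −0.20 and −0.23. No member passed the interaction of treatment and batch in limma, and of all genes 0% did (0 of 19938). At an unadjusted p under 0.05, 2 of 77 members and 1852 of 19938 genes stood out. The smallest adjusted p of a member was 0.504, for Mrpl28. With 2 arrays per group in batch 1 and 3 in batch 2, a difference between batches could be missed. For 29 members all SP600125 arrays lay below the DMSO arrays of their batch in both batches (37.7%, against 21.1% of all genes). This share also varied with signal level. It was 42.4% of members and 44.8% of all genes between 7 and 8, and 29.6% and 27.9% between 6 and 7. Between 8 and 9 it was 33.3% and 48.5%, and between 5 and 6, with only 7 members, 42.9% and 8.06%. Across batches, all 5 SP600125 arrays lay below all 5 DMSO arrays for 16 of 77 members, and for 3273 of 19938 genes (16.4%). This comparison was not split by signal level.

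Other genes of mitochondrial translation and gene expression, with some of their regulators, were examined as 5 lists. They held 72 genes in all, of which 34 fell (47.2%) and none rose. After cyclic loess 24 were lower (33.3%) and none higher. The shares lower over all genes were 29.9% and 17.7%. The median log2 signal was 6.31 to 7.01 per list, and of all genes with a signal between 6 and 7, 41.1% fell as deposited and 25.2% after cyclic loess. The 5 genes listed as ribosome proteins without an Mrp name include Oxa1l, an inner membrane insertase and not a protein of the ribosome itself. Of these 5, 2 fell: Ptcd3, an RNA-binding protein of the small subunit (by 0.34, SE 0.08), and Dap3, a GTP-binding one (by 0.30, SE 0.07). Neither passed after cyclic loess.

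Of 12 translation factors 6 fell. Mrrf, the ribosome recycling factor, read 6.89, 6.87, 6.88, 7.17 and 6.94 on DMSO and 6.36, 6.19, 6.75, 6.39 and 6.70 on SP600125 arrays and fell by 0.47 (SE 0.09, limma adjusted p = 0.000934). The groups did not overlap. Gfm1, the elongation factor that moves the ribosome along the message, fell by 0.42 (SE 0.07), and Mtif3, an initiation factor, by 0.36 (SE 0.11). Of 16 aminoacyl-tRNA synthetases, which charge transfer RNAs, 8 fell, led by Rars2 (−0.41, SE 0.07), Yars2 (−0.39, SE 0.09) and Nars2 (−0.35, SE 0.06).

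Among 21 genes of ribosome assembly and rRNA modification 7 fell. Noa1, a GTPase of small subunit assembly, read 6.96, 6.80, 6.75, 6.76 and 6.78 on DMSO and 6.28, 6.55, 6.35, 6.17 and 6.50 on SP600125 arrays and fell by 0.44 (SE 0.08, limma adjusted p = 0.000648). Tfb1m, which methylates the small ribosomal RNA, fell by 0.38 (SE 0.07) and the GTPase Mtg1 by 0.31 (SE 0.07). Of 18 genes listed under mitochondrial DNA transcription and RNA turnover 11 fell. This list also holds mitochondrial DNA replication genes (Polg, Polg2 and Twnk) and nuclear regulators (Nrf1, Gabpa, Esrra, Ppargc1a and Ppargc1b). Among the 11 were Polg, Nrf1, Esrra and Ppargc1a. Pnpt1, an RNA-degrading enzyme, read 7.29, 7.12, 7.29, 7.33 and 7.36 and 6.84, 6.60, 6.85, 6.96 and 6.76 in the same order, with no overlap, and fell by 0.48 (SE 0.07). Lrpprc, which stabilizes mitochondrial messages, fell by 0.44 (SE 0.07).

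Ppargc1a, the coactivator PGC-1α that drives mitochondrial biogenesis, had the largest fall of the 5 lists (−0.52, SE 0.14, limma adjusted p = 0.00961). It read 6.73, 6.26, 7.24, 6.95 and 6.93 on DMSO and 6.10, 6.67, 6.21, 6.13 and 6.35 on SP600125 arrays. SP600125 b was above DMSO b, against the direction of the fall, and the change was −0.11 in batch 1 and −0.80 in batch 2. The interaction did not pass (adjusted p = 0.5).

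**Figure D4:**
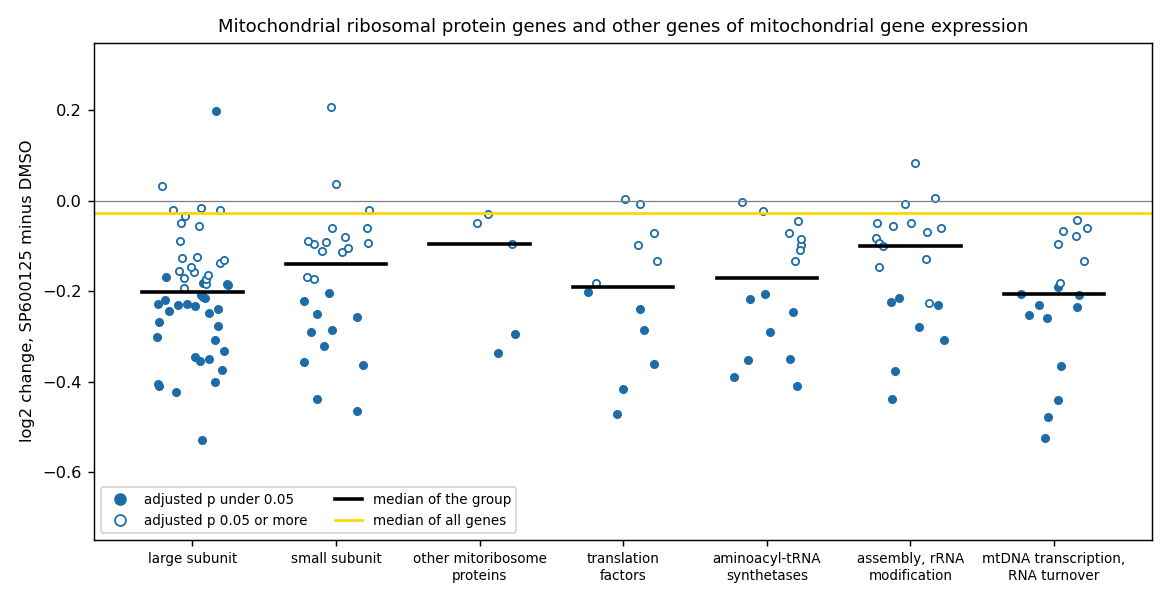
Log2 change, SP600125 minus DMSO, of each large and small subunit gene and of the genes in 5 lists of mitochondrial gene expression; filled points have an adjusted p under 0.05 in limma, thick bars are group medians and the thin coloured line is the median of all genes (−0.03). Medians run from −0.21 to −0.10, and Mrpl27 is the only filled point above 0.

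Related families are given for comparison, with no test of the difference. Nuclear genes of the respiratory chain (93 genes, median log2 signal 7.93) had 47 lower, 1 higher and a median change of −0.19. After cyclic loess 17 were lower and 6 higher. The shares lower were 50.5% and 18.3%, against 29.9% and 17.7% of all genes. Among all genes with a signal between 7 and 8, 60.6% fell as deposited and 20.5% after cyclic loess. Of the cytosolic ribosomal protein genes (65 genes, median log2 signal 9.90) 3 fell (4.62%) and 6 rose (9.23%), against 29.9% and 17.0% of all genes. After cyclic loess 2 of these 65 were lower (3.08%) and 17 higher (26.2%), against 17.7% and 9.44% of all genes. The median change of the cytosolic family was 0.03, and it was 0.05 after quantile normalization, 0.12 after cyclic loess and −0.07 after median centring.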

How the data were processed

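The deposited values are log2 expression values, 1 per probe set and array, for 35556 probe sets on 10 arrays. The submitters' processing notes name oligo 1.14.0. How background was corrected and arrays were normalized and summarized is not given in the sources used here. The log2 scale was taken from the range of the values (1.90 to 13.83). Gene names came from the platform annotation. Of the probe sets 21789 carry 1 symbol, and the brightest per gene gave 19938 genes. No arrays were duplicates (the closest pair differed by a mean of 0.158).

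All genes were fitted with limma 3.58.1 in R 4.3.3 (lmFit, eBayes, two-sided) with treatment and drug batch as terms, 7 residual degrees of freedom and Benjamini-Hochberg adjustment over all genes (threshold 0.05). The fit was tested on simulated data. Fold changes of log2 array values understate those of dim genes. The members and lists were chosen with earlier results of these data known. Genes were named by rule: members that rose, the 10 largest falls, the 5 smallest changes, the S18 paralogs, Mrpl12, Mrps36 and up to 3 largest changes per list. Mrpl10, Mrpl11, Mrpl14, Mrpl15, Mrpl17, Mrpl20, Mrpl23, Mrpl24, Mrpl32, Mrpl43, Mrpl45, Mrpl47, Mrps12 and Mrps25 were given values after these were seen. Alternatives were 3 scalings, other covariates, a filter on dim genes, the mean over probe sets and leaving out arrays.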

Additional observations from a re-analysis of the deposited data

Results flagged for a closer look

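In 6 groups of 5 arrays, out of 96 screened for the genes given values, 1 array lay far from the others (a large gap to the nearest array, against the range of the group). Chance alone gives about 1 such group in 20. Mrpl27 was 7.78 on SP600125 b, with the other SP600125 arrays between 8.13 and 8.20. Mrpl12 was 7.60 on DMSO e, above 7.24 at most elsewhere in DMSO. Mrrf was 7.17 on DMSO d (others up to 6.94), Noa1 6.96 on DMSO a (others up to 6.80) and Lrpprc 8.23 on DMSO a (others up to 8.17). Rars2 was 6.625 on SP600125 e, with the others up to 6.45. The causes were not tested.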

How the results depend on the processing

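The count of members lower was 16 after cyclic loess, 22 after quantile normalization and 62 after median centring of the arrays, against 40 as deposited, and it stayed within 33 to 47 under the other alternatives, including those without 1 array (33 to 46). The median change was −0.0576, −0.10 and −0.285 under these 3 scalings, in that order. The count of members higher was 0 after median centring, without the batch term and with probe sets averaged, 2 after cyclic loess, and from 0 to 1 without 1 array. Genes of the 5 lists past the threshold numbered 55 after median centring, against 34. The interaction called 0 members in every fit run for it. Same-letter arrays were not treated as pairs in the main fit. The correlation of their deviations from group means ran from −0.21 to 0.10. For deviations from the means of group and batch it ran from −0.34 to 0.04. With the replicate block in limma 39 members fell and 1 rose, which was Mrps12 (adjusted p = 0.0427) and not Mrpl27 (0.0516).

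Among the members given values, changes of sign concerned some that had not passed, and Mrpl23. After quantile normalization the change was 0.11 for Mrpl9, 0.0522 for Mrpl28, 0.0910 for Mrpl55, 0.0835 for Mrpl24 and −0.0081 for Mrps36, which was −0.0781 after median centring. After cyclic loess it was 0.16 for Mrpl9, 0.0862 for Mrpl28, 0.14 for Mrpl55, 0.0050 for Mrps24, 0.0424 for Mrpl10, 0.0027 for Mrpl23, 0.14 for Mrpl24 and 0.0381 for Mrpl45. Without both b arrays Mrpl24 was at 0.0001. Without 1 array, Mrpl9 ran from −0.0425 to 0.0075, Mrpl28 from −0.0771 to 0.0272, Mrps24 from −0.0718 to 0.0391 and Mrps36 from −0.0466 to 0.0784. Beyond the choice of scaling itself, the cause was not tested. The number of arrays limits the precision.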
